A study of Mus musculus with 10 samples.

Results

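The genes described here are 10 genes of polyamine metabolism and of the methionine salvage pathway that is coupled to it, *Mtap*, *Mri1*, *Odc1*, *Amd1*, *Srm*, *Sms*, *Sat1*, *Smox*, *Oaz1* and *Azin1*. They were taken by name from the 49315 genes of a count table of mouse gastrocnemius muscle, and all 10 were among the 14714 genes with enough counts for a test. *Mtap* was chosen by its difference between the genotypes compared here, so its difference is given as a description with no test, and calls were counted over the 9 other genes.

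Polyamines are small cations that bind nucleic acids and are needed for growth and translation. *Odc1* makes putrescine from ornithine, *Amd1* makes the aminopropyl donor from S-adenosylmethionine, and *Srm* and *Sms* add aminopropyl groups to give spermidine and then spermine. Each of these additions leaves methylthioadenosine, which *Mtap* cleaves and *Mri1* and later enzymes return to methionine. *Sat1* and *Smox* break polyamines down, while antizyme (*Oaz1*) and antizyme inhibitor (*Azin1*) set how fast ornithine decarboxylase is degraded. In skeletal muscle, *Odc1*, *Amd1* and *Smox* are known as androgen-responsive genes.

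RNA was sequenced from the gastrocnemius of 10 male mice on a C57BL6J background, 5 AHRfl/fl and 5 AHRmKO. All carried floxed alleles of *Ahr* (AHR tm3.1Bra), the gene of a ligand-activated transcription factor that binds components of tobacco smoke. The AHRmKO mice also carried the HSA-MCM transgene, a MerCreMer recombinase driven by the human ACTA1 promoter and switched on with tamoxifen. The AHRfl/fl mice were described as littermates without Cre, and the study's text does not say outright whether they also received tamoxifen. Every mouse was exposed to cigarette smoke in 2 daily sessions of 1 h on 5 days per week for 16 weeks, at 220 ± 80 mg/m3. By the sample labels, muscle was taken 72 h after the last exposure, while the study's text gives a range of hours that ends there. The study calls the smoke-exposed mice aged but their ages in weeks or months and their litters were not given in the sources used here, the interval between tamoxifen and smoke differs between the methods and the sample labels, and no air-exposed muscle was analysed here. The ACTA1 promoter acts in myofibres, so other cells of the muscle keep *Ahr*, and in whole-muscle RNA fewer cells of a type and less RNA per cell cannot be told apart.

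Total counts were between 30393035 and 37954388 per mouse. Levels are given as CPM, counts scaled to the TMM-normalized library size, and levels of different genes are compared as RPKM, which divides CPM by the exon length. *Ahr* itself was at 2.02 ± 0.681 CPM (SD, n = 5) in AHRfl/fl and 1.58 ± 0.443 CPM (SD, n = 5) in AHRmKO mice (log2 fold change -0.35, SE 0.256, adjusted p = 0.844, edgeR quasi-likelihood test). These counts sum all of its exons. The study checked recombination in genomic DNA, with PCR primers on either side of exon 2, and also measured *Ahr* mRNA by quantitative PCR. The counts of single exons were not tested here. The only gene with an adjusted p under 0.05 was *Esr1*, higher by 4.44 on the log2 scale in AHRmKO mice. Their transgene is named for *Esr1* sequence, and whether it gave these counts was not tested. Myofibre markers (*Acta1*, *Ckm*, *Myh4*, *Mylpf*, *Tnnt3* and *Pvalb*) were high in every library, at a summed 121334 to 177526 CPM in AHRfl/fl and 134089 to 171014 CPM in AHRmKO mice. Slow-fibre markers varied widely within both genotypes, from 95.4 to 2028 and from 253.8 to 2408 CPM. *Xist* had 44 to 75 counts in 5 libraries (3 AHRfl/fl and 2 AHRmKO) and at most 3 in the others, although 4 Y-linked genes summed to between 4329 and 5732 counts in every library. Without the libraries that held *Xist*, 2 AHRfl/fl mice (12 and 13) and 3 AHRmKO mice (8, 19 and 34) remain.

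The promoters of 3 genes are shown first, since *Mtap* was the gene on which the group was selected and *Mri1* and *Odc1* had the lowest unadjusted p-values of the rest. The windows run from 250 bases before to 50 bases after a RefSeq transcript start in GRCm38.p6. They lie at chr4:89137120-89137419 on the plus strand (*Mtap*), chr8:84257275-84257574 on the minus strand (*Mri1*) and chr12:17544623-17544922 on the plus strand (*Odc1*), each written 5′ to 3′ along its gene. Capitals mark GCGTG, the core of the site that AHR binds with its partner ARNT, and its reverse complement CACGC.
Mtap: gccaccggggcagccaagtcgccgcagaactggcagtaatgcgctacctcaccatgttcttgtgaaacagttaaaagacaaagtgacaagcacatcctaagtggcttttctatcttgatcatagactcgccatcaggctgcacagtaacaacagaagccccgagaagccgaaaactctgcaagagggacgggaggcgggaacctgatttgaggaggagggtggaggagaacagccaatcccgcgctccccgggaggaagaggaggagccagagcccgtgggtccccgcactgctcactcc
Mri1: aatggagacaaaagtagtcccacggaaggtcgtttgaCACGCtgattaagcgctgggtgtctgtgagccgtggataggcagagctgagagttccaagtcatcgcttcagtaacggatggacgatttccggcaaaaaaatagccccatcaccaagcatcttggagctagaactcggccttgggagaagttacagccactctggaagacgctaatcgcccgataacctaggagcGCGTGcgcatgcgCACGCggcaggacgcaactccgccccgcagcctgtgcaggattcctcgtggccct
Odc1: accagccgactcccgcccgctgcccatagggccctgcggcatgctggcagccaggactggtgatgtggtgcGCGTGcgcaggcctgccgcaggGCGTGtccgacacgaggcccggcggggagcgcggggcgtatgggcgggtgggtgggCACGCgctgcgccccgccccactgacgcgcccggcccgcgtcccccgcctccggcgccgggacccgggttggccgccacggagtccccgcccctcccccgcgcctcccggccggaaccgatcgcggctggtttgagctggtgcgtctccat

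The letters GCGTG or CACGC occurred 3 times in the window of *Mri1*, 3 times in that of *Odc1* and 0 times in that of *Mtap*. Of the 8 genes with a RefSeq window, 5 held the letters at least once in at least 1 window. Counted by window, 5 of the 9 windows of these genes held them, against 32.4% of all 32851 windows of the same length. Such a match only describes the letters in these bases. *Srm* and *Azin1* had no window to search.

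The levels of the 10 genes spanned a wide range (the plot of level per length). *Amd1* was the highest, with a mean of 344.7 RPKM and a range of 257 to 439 RPKM over the 10 mice, above every value of the next genes. *Oaz1* followed at a mean of 182.0 RPKM and *Smox* at 162.4 RPKM, and the ranges of these neighbours overlapped. *Odc1* was at a mean of 72.4 RPKM, with only its highest mouse inside the range of *Smox*. The spermine synthase gene *Sms* stood apart from its neighbours at 23.2 RPKM. *Sat1* (9.75), *Azin1* (6.80), *Mtap* (4.99), *Mri1* (3.98) and *Srm* (3.86) made up the low end on the mean RPKM scale, and each overlapped the next gene in this order. The mRNA for the decarboxylase that supplies aminopropyl groups was therefore much more abundant than the mRNAs for spermidine synthase, which uses them, and for *Mtap*, which removes their by-product.

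**Figure D1:**
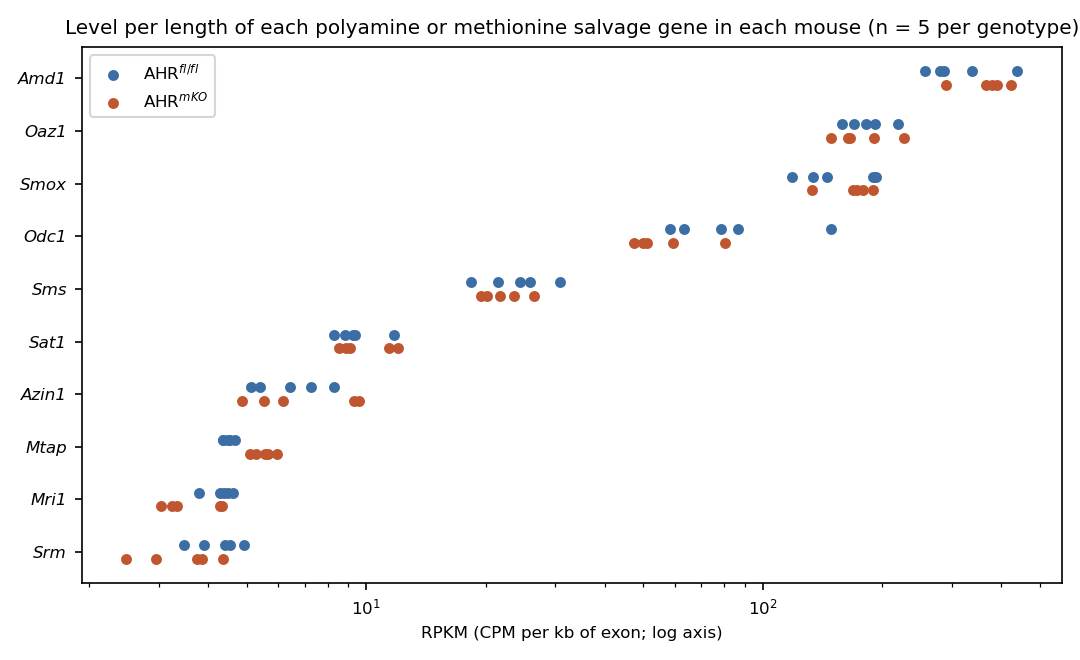
RPKM (log axis) of each of the 10 genes in each mouse, with AHRfl/fl mice in blue and AHRmKO mice in orange (n = 5 each), ordered by mean level. The means run from 3.86 RPKM for Srm to 344.7 RPKM for Amd1, and Mtap is the only gene whose blue and orange points do not overlap.

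*Mtap*, the methylthioadenosine phosphorylase gene that opens methionine salvage, was higher in AHRmKO than in AHRfl/fl mice. It (ENSMUSG00000062937) occupies positions 89137122 to 89181081 on the plus strand of chromosome 4 (GRCm38), and it had between 472 and 672 counts per library. In AHRfl/fl mice 11, 12, 13, 15 and 33 it was at 14.04, 15.08, 14.08, 14.45 and 14.59 CPM. In AHRmKO mice 8, 9, 19, 22 and 34 it was at 16.44, 17.96, 19.18, 17.01 and 18.27 CPM. The 5 AHRfl/fl values lay close together, and each of the 5 AHRmKO values lay above all of them. The means were 14.4 ± 0.426 CPM and 17.8 ± 1.07 CPM (SD, n = 5 each), a 1.23-fold difference, or 0.30 on the log2 scale. Leaving out any single mouse gave log2 differences between 0.27 and 0.33. These values are the contrast that selected the gene and support nothing further.

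The next gene of the salvage pathway, *Mri1*, which encodes the isomerase acting on methylthioribose 1-phosphate, had a lower mean in AHRmKO mice. In AHRfl/fl mice 11, 12, 13, 15 and 33 it was at 12.40, 14.02, 14.36, 14.70 and 15.15 CPM. In AHRmKO mice 8, 9, 19, 22 and 34 it was at 9.93, 10.61, 10.90, 14.04 and 14.20 CPM. Mice 8, 9 and 19 lay below every AHRfl/fl mouse, whereas mice 22 and 34 lay among them. The log2 difference was -0.24 (SE 0.110, 95% interval -0.48 to -0.01, n = 5 and 5; unadjusted p = 0.0452, adjusted p = 0.740, edgeR quasi-likelihood test), and the two-sided exact permutation test gave p = 0.0714. The unadjusted p was between 0.0126 and 0.116 when single mice were left out, so it rested on the choice of mice.

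The other listed salvage genes were tested alongside. *Adi1*, which encodes a dioxygenase of a later salvage step and was the most abundant of them, was at a mean of 58.9 RPKM, and its log2 difference was -0.10 (SE 0.115, adjusted p = 0.907, edgeR). All 3 further salvage genes tested, *Apip*, *Enoph1* and *Adi1*, had lower means in AHRmKO mice, with log2 differences between -0.10 and -0.05, and none of these passed the test.

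*Odc1*, whose product catalyses the first step of polyamine synthesis, had the largest difference of the 10 genes over all mice and also the widest spread. Without mouse 12 the difference of *Amd1* (0.35) was larger. In AHRfl/fl mice 11, 12, 13, 15 and 33 it was at 295.7, 505.1, 267.97, 199.03 and 215.7 CPM. In AHRmKO mice 8, 9, 19, 22 and 34 it was at 174.2, 170.3, 202.5, 161.6 and 274.3 CPM. Mouse 12 of the AHRfl/fl group stood far above all others, and none of the 5 AHRmKO mice reached the AHRfl/fl mean, but the groups overlapped. The log2 difference was -0.59 (SE 0.262, 95% interval -1.18 to -0.01, n = 5 and 5; unadjusted p = 0.0478, adjusted p = 0.753, edgeR), with p = 0.0794 in the two-sided exact permutation test. The unadjusted p was between 0.0207 and 0.101 when single mice were left out. Without mouse 12 the log2 difference was -0.32, and without the libraries that held *Xist* it was -0.83 (adjusted p = 0.978).

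*Amd1*, the S-adenosylmethionine decarboxylase gene, had a higher mean in AHRmKO mice, unlike *Odc1*. It was at 910.1, 1554, 1191, 1014 and 991.3 CPM in AHRfl/fl mice 11, 12, 13, 15 and 33. It was at 1029, 1296, 1343, 1381 and 1499 CPM in AHRmKO mice 8, 9, 19, 22 and 34. Mouse 12 was again the highest AHRfl/fl mouse, above every AHRmKO mouse, while the other AHRfl/fl mice lay below 4 of the 5 AHRmKO mice. The log2 difference was 0.21 (SE 0.143, 95% interval -0.10 to 0.52, n = 5 and 5, adjusted p = 0.826, edgeR, exact permutation p = 0.198). Without mouse 12 it was 0.35 with an unadjusted p of 0.00700 and an adjusted p of 0.656 (edgeR). Without the *Xist* libraries, which left AHRfl/fl mice 12 and 13, the highest of that genotype, the log2 difference turned to -0.09. With all mice kept and *Xist* presence as a covariate it was 0.19.

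Spermidine synthase, *Srm*, was low, with 151 to 273 counts per library. It was at 7.25, 7.87, 6.23, 5.55 and 7.05 CPM in AHRfl/fl mice 11, 12, 13, 15 and 33, and at 3.97, 4.72, 5.99, 6.15 and 6.97 CPM in AHRmKO mice 8, 9, 19, 22 and 34. Mice 8 and 9 were the lowest of all, and the other AHRmKO mice lay within the AHRfl/fl range. The log2 difference was -0.29 (SE 0.155, 95% interval -0.62 to 0.04, adjusted p = 0.792, edgeR), and it lay between -0.38 and -0.19 when single mice were left out, with -0.19 without mouse 8. Spermine synthase, *Sms*, ranged from 110.6 to 184.9 CPM in AHRfl/fl and from 117.1 to 159.1 CPM in AHRmKO mice, with a log2 difference of -0.12 (SE 0.128, adjusted p = 0.902, edgeR). The log2 difference of *Sms* was -0.02 without mouse 12, -0.20 without mouse 15 and -0.27 without the *Xist* libraries. *Odc1*, *Srm* and *Sms* thus had lower means in AHRmKO mice and *Amd1* a higher one, and no difference of the 4 passed the test.

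**Figure D2:**
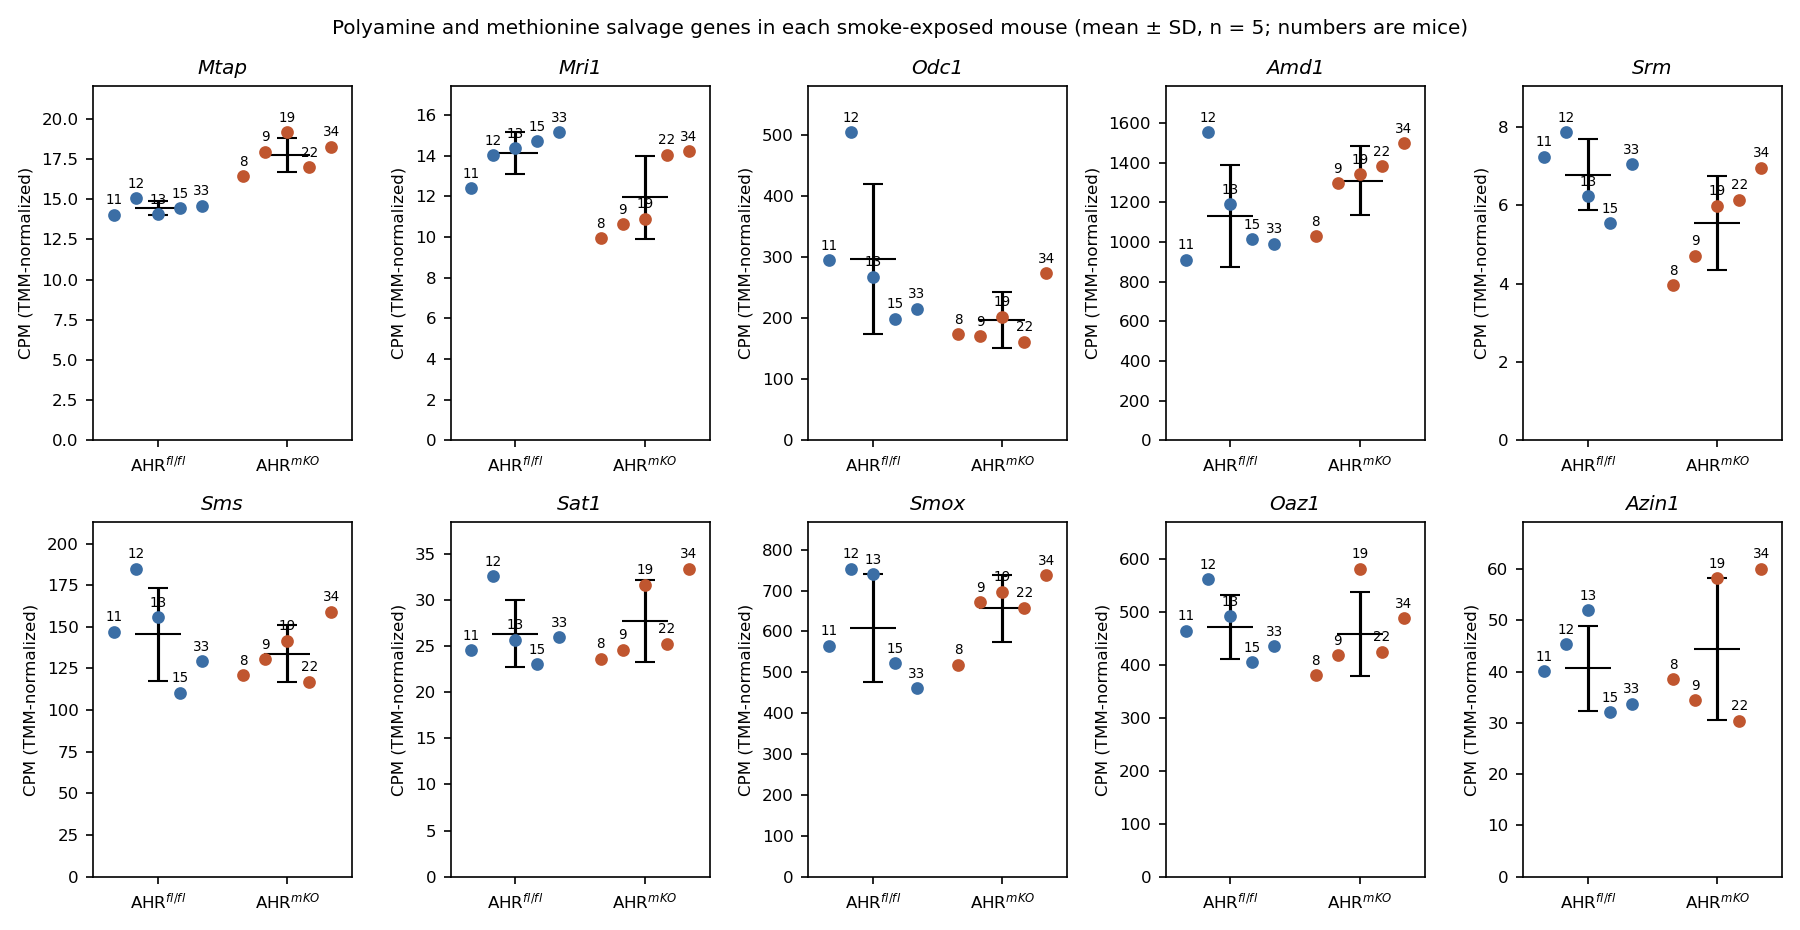
TMM-normalized CPM of the 10 genes in each mouse (numbered points), with AHRfl/fl in blue, AHRmKO in orange and the mean ± SD of 5 mice in black. The 2 groups of points are separate for Mtap (14.04 to 15.08 against 16.44 to 19.18 CPM) and overlap in every other panel, and mouse 12 stands apart for Odc1 at 505.1 CPM.

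Neither of the catabolic genes *Sat1* and *Smox* had a difference between the genotypes that passed the test. *Sat1*, the acetyltransferase that marks spermidine and spermine for export or oxidation, was at 26.4 ± 3.66 CPM in AHRfl/fl and 27.7 ± 4.47 CPM in AHRmKO mice (SD, n = 5 each; log2 difference 0.07, SE 0.116, adjusted p = 0.947, edgeR), and the log2 difference of *Sat1* was -0.0048 without mouse 34. *Smox*, the spermine oxidase gene, was at 565.0, 753.35, 739.5, 522.3 and 461.5 CPM in AHRfl/fl mice 11, 12, 13, 15 and 33. It was at 518.9, 671.4, 696.6, 658.4 and 737.3 CPM in AHRmKO mice 8, 9, 19, 22 and 34, all within the AHRfl/fl range. The log2 difference of *Smox* was 0.11 (SE 0.141, 95% interval -0.20 to 0.42, adjusted p = 0.923, edgeR). It was 0.03 without mouse 33, 0.20 without mouse 12 and -0.20 without the *Xist* libraries. That last fit kept only mice 12 and 13 of the AHRfl/fl group, its highest for *Smox*. With all mice kept and *Xist* presence as a covariate, the log2 difference of *Smox* was 0.08. *Sat2* and *Paox*, the other catabolic genes listed, were at 2.44 and 0.79 RPKM and did not pass the test.

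Of the antizyme system, *Oaz1* was at 472.1 ± 59.9 CPM in AHRfl/fl and 459.0 ± 79.0 CPM in AHRmKO mice (SD, n = 5 each; log2 difference -0.04, SE 0.117, 95% interval -0.29 to 0.21, adjusted p = 0.974, edgeR). The log2 difference of *Oaz1* was 0.0292 without mouse 12, 0.0195 without mouse 8 and 0.0285 once the mean level of the slow-fibre markers was added to the fit. *Azin1* was more variable, from 32.1 to 51.96 CPM in AHRfl/fl and from 30.45 to 60.1 CPM in AHRmKO mice, where mice 19 and 34 were high at 58.3 and 60.1 CPM and the other 3 lay between 30.45 and 38.6 CPM. Its log2 difference was 0.13 (SE 0.215, 95% interval -0.35 to 0.60, adjusted p = 0.951, edgeR), and it was -0.0084 without mouse 34, 0.0135 without mouse 19 and -0.0080 with *Xist* presence as a covariate. *Oaz2*, the second antizyme gene, was at 70.5 RPKM with a log2 difference of -0.08 (adjusted p = 0.884, edgeR). The translation of antizyme and of *Amd1* and *Odc1* is itself set by polyamines, and RNA counts do not measure it.

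None of the 9 genes other than *Mtap* passed an adjusted p of 0.05 in edgeR, against 0.0068% of all genes tested. None of the 9 passed it in DESeq2 either, where 10 genes passed in all. An unadjusted p under 0.05 was reached by 2 of the 9 (*Mri1* and *Odc1*), against 6.61% of all genes. *Mtap* was the single gene of the 10 whose groups did not overlap, against 1.4% of all genes tested, and nothing is read from it because the same contrast chose it. Of the 10 genes, 5 had a higher and 5 a lower mean in AHRmKO mice. Their median log2 difference was 0.02, or -0.04 over the 9, and that of all genes tested was 0.01.

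A wider list of the pathway held 36 more genes, of which 27 had enough counts for a test. Of these, 15 had a higher and 12 a lower mean in AHRmKO mice, with a median log2 difference of 0.02 and a range from -0.20 to 0.36, and none passed the adjusted threshold. An unadjusted p under 0.05 was found for 2 of the 27, near the share of 6.61% of all genes tested, so it is no result about the list. These were *Mat2a*, which makes S-adenosylmethionine from methionine, and *Mtrr*, which keeps methionine synthase active. *Mat2a* was at 176.0 ± 24.1 CPM in AHRfl/fl and 205.6 ± 23.5 CPM in AHRmKO mice (SD, n = 5 each; log2 difference 0.22, SE 0.103, adjusted p = 0.754, edgeR, exact permutation p = 0.0714). Without the *Xist* libraries the log2 difference of *Mat2a* was -0.04. *Mtrr* was at 19.9 ± 0.750 CPM and 22.2 ± 1.90 CPM (SD, n = 5 each; log2 difference 0.16, SE 0.0702, adjusted p = 0.735, edgeR, exact permutation p = 0.0556). When single mice were left out, the unadjusted p rose to as much as 0.133 for *Mat2a* and 0.124 for *Mtrr* (edgeR).

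**Figure D3:**
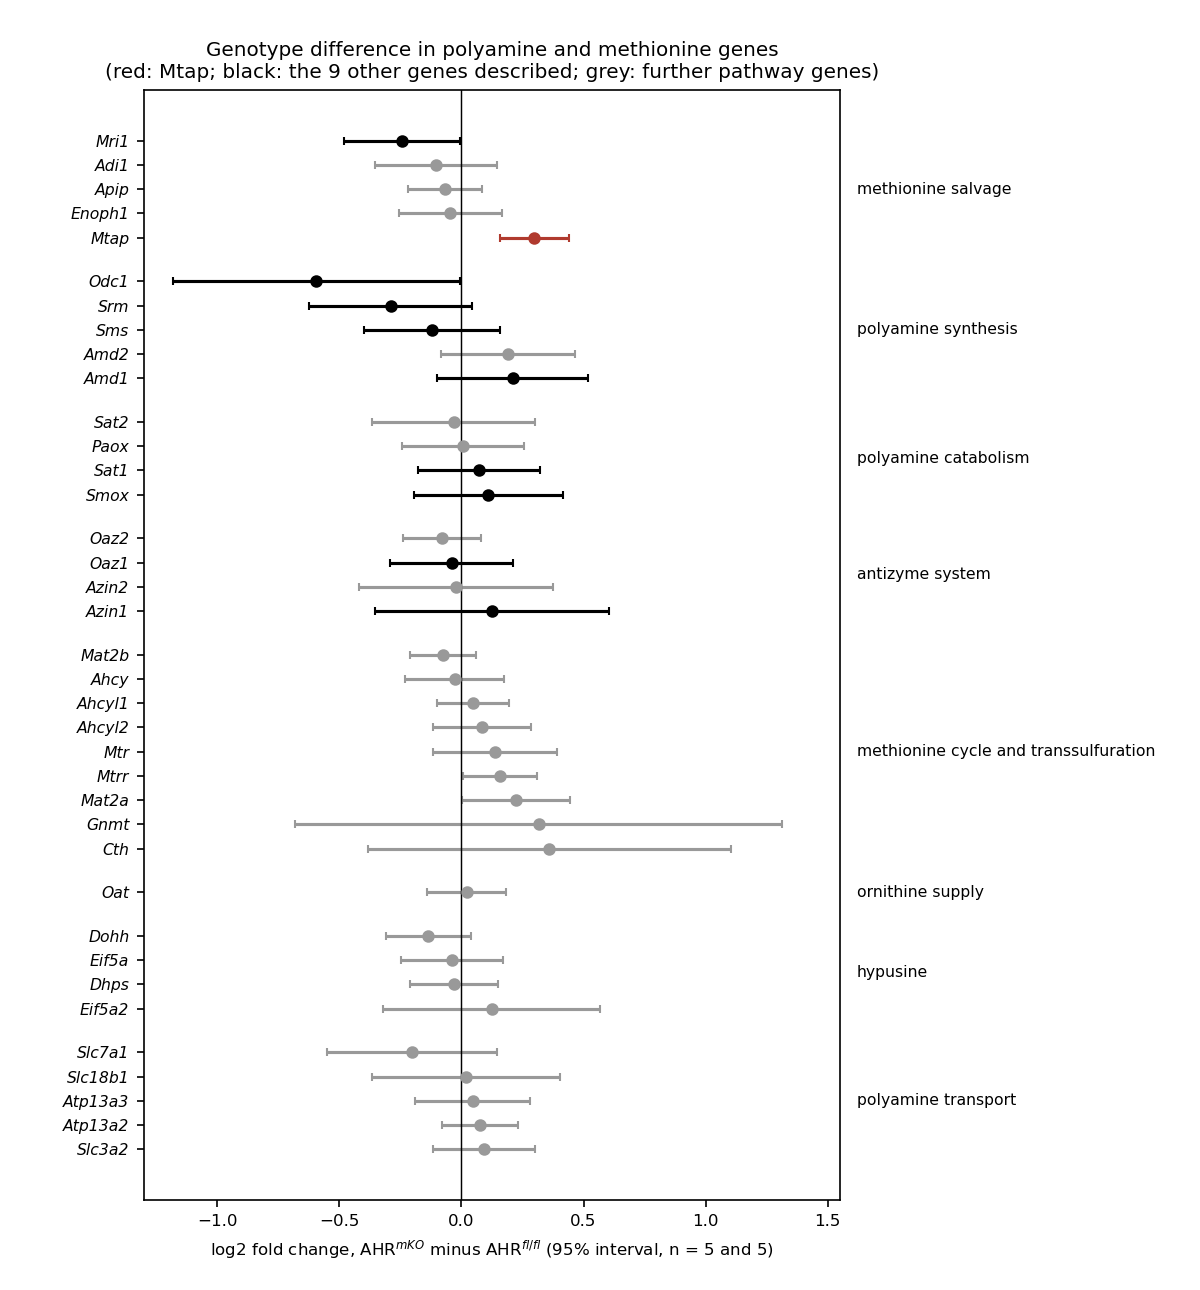
Log2 fold change (AHRmKO minus AHRfl/fl, n = 5 and 5) with its 95% interval for the 37 pathway genes with enough counts for a test, grouped by role. Mtap is in red, the 9 other genes described are in black and further list genes in grey. The interval of Mtap is on the contrast that chose it and is no test. Of the genes other than Mtap, those with an interval that does not reach 0 are Mri1, Odc1, Mat2a and Mtrr, each ending within 0.01 of it.

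In the remaining roles the most abundant genes did not pass the test between genotypes. *Oat*, which links ornithine to proline and glutamate metabolism, was at 67.0 RPKM with a log2 difference of 0.02 (adjusted p = 0.979, edgeR). *Eif5a*, the translation factor that carries hypusine made from spermidine, was at 180.5 RPKM with a log2 difference of -0.04 (adjusted p = 0.968, edgeR). *Slc3a2*, of the transport genes, was at 9.22 RPKM with a log2 difference of 0.09 (adjusted p = 0.902, edgeR). *Amd2*, a near-copy of *Amd1*, was at 4.67 RPKM with a log2 difference of 0.19 (adjusted p = 0.826, edgeR), and its counts amounted to 1.23% of those of *Amd1*. The near-copies *Oaz1-ps* and *Sms-ps* amounted to 1.43% of *Oaz1* and 0.629% of *Sms*. Reads that match a gene and its copy equally were not counted for either, and how many there were is not known from these counts.

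Across the 10 mice, 1 of the 45 pairs of these genes passed the adjusted threshold for a correlation of log2 CPM by Pearson's r and 0 passed by Spearman's rho. Of the 45 pairs, 40 had a positive correlation, with a median Pearson's r of 0.50, and with the genotype means removed all 45 were positive, with a median of 0.64. Over all pairs of the 14714 genes tested, 49.9% were positive on either scale. Each mouse is 1 library, so all pairs share the same libraries. The 45 pairs include 9 that hold *Mtap*, whose values over all mice contain the contrast that chose it. Of the 36 pairs without *Mtap*, 35 were positive, with a median r of 0.60, and 3 passed an adjustment over the 36 by Pearson's r and 0 by Spearman's rho. *Odc1* and *Sms* had the highest Pearson's r, 0.88 (permutation p = 0.00071, adjusted p = 0.0319 over 45 pairs, n = 10) and Spearman's rho = 0.82 (permutation p = 0.00528, adjusted p = 0.0792). By rho, *Odc1* with *Srm* and *Sms* with *Azin1* ranked above them at 0.83 each (adjusted permutation p = 0.0792). Within AHRfl/fl mice the r of *Odc1* with *Sms* was 0.93 and within AHRmKO mice 0.95, and without the mice farthest from the median *Odc1* level, 11 and 12, it was 0.80. *Sms* ranked 102 of 14713 genes by its r with *Odc1*.

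No other pair passed the adjustment over 45 pairs, and the next 2 passed that over the 36 without *Mtap*, with an adjusted permutation p of 0.0431 each. *Amd1* and *Smox*, the first of them, had r = 0.85 (permutation p = 0.00359, adjusted p = 0.0538, n = 10) and rho = 0.76 (permutation p = 0.0151), with 0.80 within AHRfl/fl and 0.97 within AHRmKO mice and 0.86 without mice 11 and 33. *Sat1* and *Oaz1* had r = 0.83 (permutation p = 0.00323, adjusted p = 0.0538, n = 10) and rho = 0.79 (permutation p = 0.00880), and their r was 0.90 without mice 12 and 34. *Srm* and *Mri1* had r = 0.71 (permutation p = 0.0202, adjusted p = 0.0872, n = 10) and rho = 0.42 (permutation p = 0.233), and this relation rested on mice 8 and 9, since r was 0.10 without them. *Mtap* and *Mri1* had r = -0.51 over all mice, which contains the contrast that chose *Mtap*, and 0.15 with the genotype means removed.

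**Figure D4:**
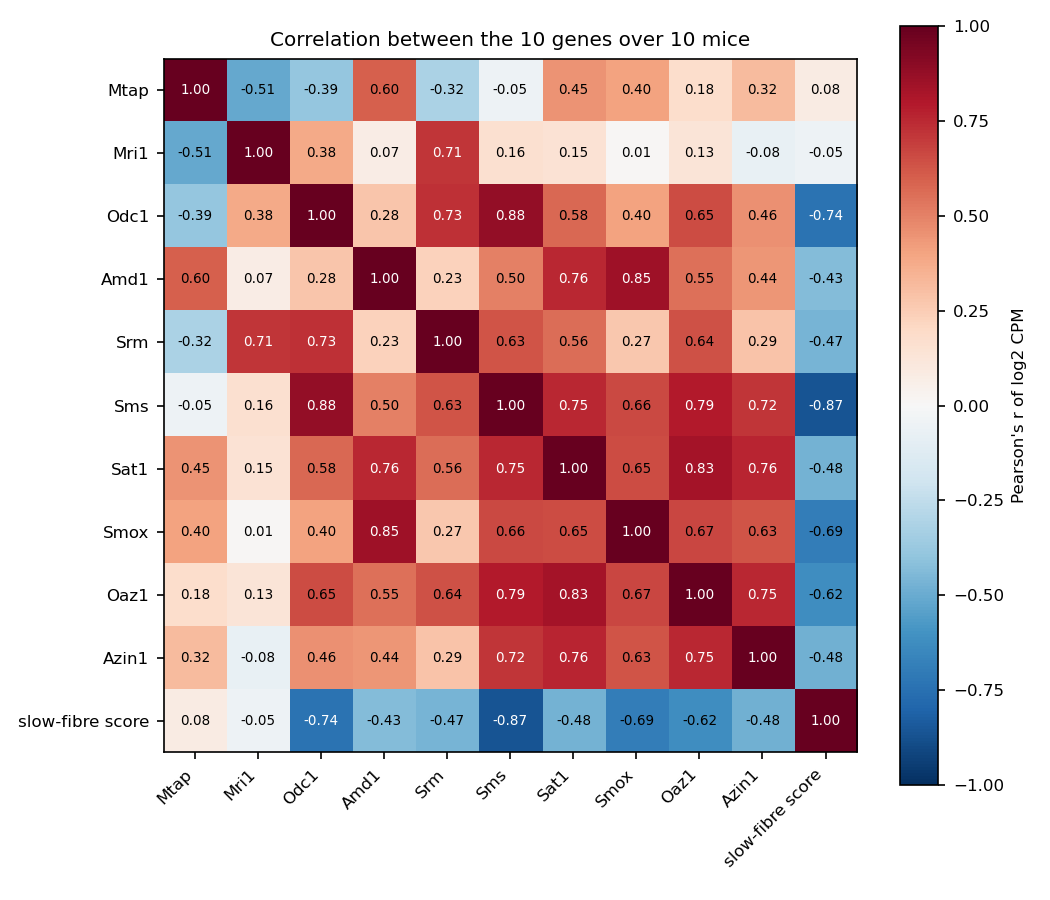
Pearson's r of log2 CPM over 10 mice for each pair of the 10 genes and of each gene with the slow-fibre score, from blue (-1) to red (1). Odc1 with Sms (0.88) and Amd1 with Smox (0.85) have the highest r of the pairs, and the last row and column hold the negative values of Sms (-0.87) and Odc1 (-0.74) with the slow-fibre score.

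The levels of *Sms* and *Odc1* were negatively correlated with a slow-fibre score, with a p under 0.05 after adjustment over 10 genes for both by Pearson's r and for *Sms* alone by Spearman's rho. The slow-fibre score, the mean log2 CPM of 9 markers of slow (type I) fibres, was between 2.09 and 7.28 in AHRfl/fl mice (median 3.89) and between 3.48 and 7.49 in AHRmKO mice (median 5.53, two-sided exact permutation p = 0.444). *Sms* was lower where the score was higher, with r = -0.87 (permutation p = 0.00147, adjusted p = 0.0147 over 10 genes, n = 10) and rho = -0.84 (permutation p = 0.00385, adjusted p = 0.0385). Its r was -0.97 within AHRfl/fl and -0.64 within AHRmKO mice, and -0.78 without mice 12 and 8, the farthest from the median score. For *Odc1* r was -0.74 (permutation p = 0.00970, adjusted p = 0.0485, n = 10) and rho -0.61 (permutation p = 0.0664, adjusted p = 0.166), with -0.90 within AHRfl/fl and -0.41 within AHRmKO mice and -0.51 without mice 12 and 8. Without mouse 12 alone, which had the lowest score, the r of *Odc1* was -0.58, and without mouse 8 alone it was -0.71. An r below -0.5 with the score was found for 4 of the 10 genes (*Sms*, *Odc1*, *Smox* and *Oaz1*) and for 17.0% of all genes tested. *Mri1* had r = -0.05 with the score (permutation p = 0.898, n = 10). For *Mtap*, r was 0.08 over all mice and -0.41 with the genotype means removed, given as a description. Adjusted over the 9 genes without *Mtap*, the permutation p of r was 0.0132 for *Sms* and 0.0436 for *Odc1*, and that of rho was 0.0346 for *Sms* and 0.0486 for *Smox* (rho -0.78).

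With the score as a covariate, the genotype differences of *Odc1*, *Sms*, *Amd1* and *Smox* shifted upward. Those of *Azin1* (to 0.24), *Sat1* (to 0.13), *Srm* (to -0.24) and *Oaz1* (to 0.0285) did too, while that of *Mri1* moved down to -0.26. The log2 difference of *Odc1* became -0.36 (adjusted p = 0.706, edgeR), that of *Sms* -0.01 (adjusted p = 0.991), that of *Amd1* 0.30 (unadjusted p = 0.0248, adjusted p = 0.576) and that of *Smox* 0.23 (unadjusted p = 0.0272, adjusted p = 0.598). That of *Mtap* was 0.31. The part of fibre content in the genotype differences was not tested further.

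**Figure D5:**
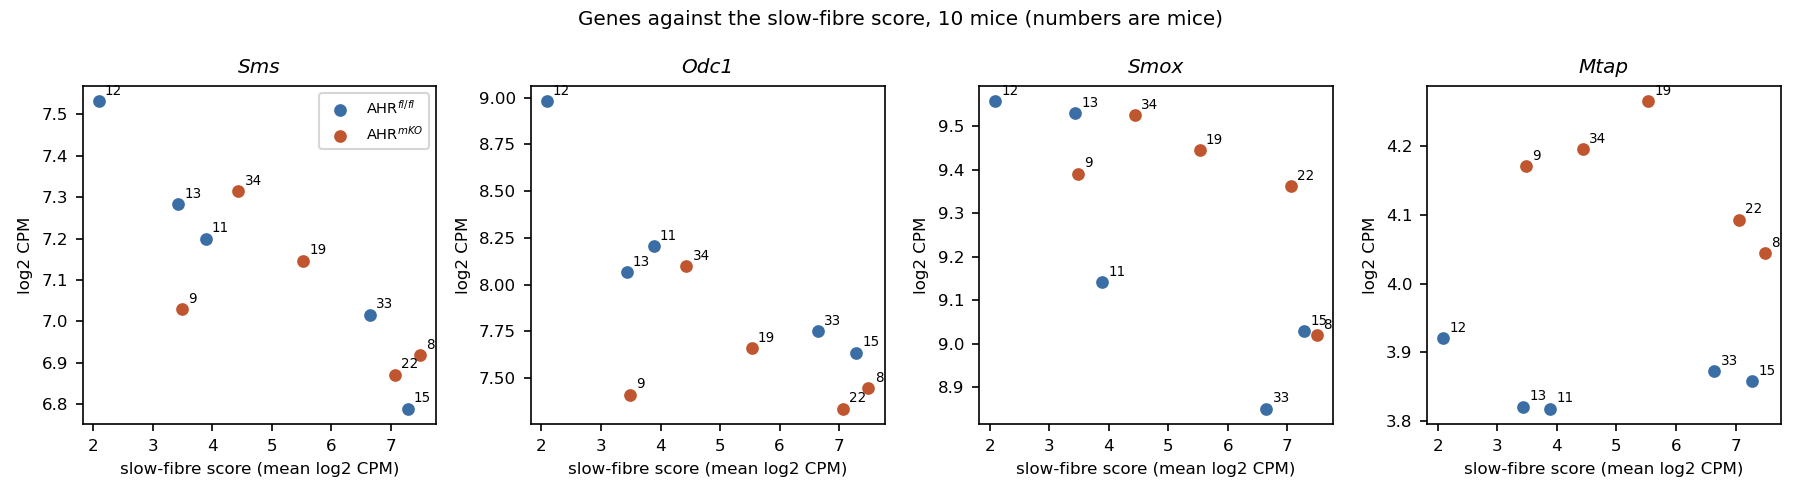
Log2 CPM of Sms, Odc1, Smox and Mtap against the slow-fibre score (mean log2 CPM of 9 slow-fibre markers) in 10 mice, with AHRfl/fl in blue and AHRmKO in orange and mice numbered. Sms falls across the score (r = -0.87), and mouse 12 has the lowest score and the highest Odc1.

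Among the 14713 other genes tested, those whose log2 CPM followed *Mtap* most closely over the 10 mice were *Esr1* (r = 0.93), *Il12a* (0.92), *Plcd4* (0.89), *Gm15816* (0.89) and *Tti1* (0.89), a ranking that contains the genotype contrast itself. With the genotype means removed, the closest were *Copz1* (r = 0.95), *Vamp3* (0.94), *Dap3* (0.93), *Gcnt1* (0.92) and *Noc4l* (0.92), of which *Gcnt1* had only 0.328 CPM. Of the 9 other polyamine and salvage genes, *Oaz1* had the highest such r with *Mtap* (0.77, rank 268 of 14713) and *Mri1* the lowest (0.15, rank 5756). These ranks are descriptions over 10 mice, without a test. Within 1 Mb of *Mtap* lie 5 other tested genes, which were looked at after the values were seen. Their log2 differences were 0.19 for *Klhl9*, 0.61 for *Cdkn2a*, 0.26 for *Gm26566*, -0.04 for *Cdkn2b* and -0.17 for *Hacd4*, with adjusted p between 0.769 and 0.979 (edgeR).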

How the data were processed

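RNA of the gastrocnemius of 10 male smoke-exposed mice was analysed, 5 AHRfl/fl and 5 AHRmKO, each mouse as 1 replicate. The authors trimmed poly(A)-selected paired-end reads (Trimmomatic 0.36), mapped them to GRCm38 (STAR 2.5.2b) and deposited raw counts of unique reads on the exons of each gene from featureCounts, neither normalized nor pooled. The Ensembl release and the strandedness were not given in the sources used here, and *Azin1* shares 5.72% of its exon bases with a gene on the other strand.

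Names, positions and exon lengths came from GENCODE M21 (49056 of 49315 identifiers). Counts were fitted with edgeR 4.0.16 under R 4.3.3: filterByExpr (minimum count 10, minimum total 15), TMM, and the robust quasi-likelihood test with Benjamini-Hochberg adjustment over 14714 genes. Log2 CPM used a prior count of 2, and RPKM is CPM per kb of exon. Single genes also had a two-sided exact permutation test over 252 assignments (smallest p 0.00794), and correlations had 100000 permutations. The fit was also run on simulated data. At an adjusted p under 0.05 it called 23 of 66 genes with a true absolute log2 difference of 0.5. It called 50 of 65 genes with a difference of 1, and 6 of 14315 genes with none.

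The genes, pathway list and marker lists were chosen with earlier results of these data known. Named were the 10 genes, for each role the pathway gene with the highest RPKM, pathway genes with an unadjusted p under 0.05, the 5 genes most correlated with *Mtap* on each scale, and near-copies. The 5 tested genes within 1 Mb of *Mtap* were added after values were seen. Promoter windows came from RefSeq (GRCm38.p6). The values of *Mtap* are given with no p-value, although its pairs count in the adjustment over 45 pairs and over 10 genes.

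Alternatives were DESeq2 1.42.0, limma-voom (limma 3.58.1), other scalings and filters, a threshold of 0.1, the slow-fibre score or *Xist* presence as a covariate, and leaving out each mouse or the *Xist* libraries. DESeq2 with its filtering set at 0.05, and adjustment of the correlations without *Mtap*, were added after the data were seen. Total counts per mouse were between 30393035 and 37954388, and reads carry no molecular identifiers.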

Additional observations from a re-analysis of the deposited data

How the results depend on the processing

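Over the 10 genes and 20 alternatives each, 192 of 200 log2 differences kept their direction and 8 reversed, all of them of genes that passed no test. Without the libraries that held *Xist*, *Amd1* was at -0.087 and *Smox* at -0.20. The AHRfl/fl group of that fit was mice 12 and 13, the highest of the genotype for both genes. With all mice kept and *Xist* presence as a covariate, *Amd1* was at 0.19 and *Smox* at 0.08. *Oaz1* was at 0.0285 with the slow-fibre score, and between -0.14 and 0.0292 when single mice were left out, with 0.0292 without mouse 12 and 0.02 without mouse 8. *Azin1* was at -0.0080 with *Xist* presence as a covariate and between -0.0084 (without mouse 34) and 0.24 when single mice were left out, and *Sat1* was between -0.0048 (without mouse 34) and 0.16. The causes of these reversals were not tested. Under every alternative, 0 of the 9 genes and 0 of the tested pathway genes other than *Mtap* passed the adjusted threshold. *Mtap* lay between 0.28 and 0.31 under the settings that kept all mice or left out the *Xist* libraries.

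Over all genes, edgeR called 1 gene at an adjusted p under 0.05, with 10 called by DESeq2, 21 by DESeq2 with filtering at 0.05, 5 without a filter on low counts and 2 with the slow-fibre score. The count was between 1 and 6 when single mice were left out, with 6 without AHRmKO mouse 34. By Spearman's rho, 0 of the 45 pairs passed the adjustment, against 1 by Pearson's r, or 3 of the 36 pairs without *Mtap*. No paired analysis was possible because each animal number occurs in a single genotype and litters are not given. *Srm* had the fewest counts of the 10 genes, 151 to 273 per library.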
